A study of Arabidopsis thaliana with 16 samples.

Results

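The indole glucosinolate core pathway was followed in leaf RNA of Arabidopsis thaliana Col-0 as 7 genes, picked by locus identifier from the 34262 genes listed. They are CYP79B2 (AT4G39950), CYP79B3 (AT2G22330), CYP83B1 (AT4G31500), GSTF9 (AT2G30860), GSTF10 (AT2G30870), UGT74B1 (AT1G24100) and SOT16 (AT1G74100). Rosette leaves came from 4 groups of plants with 4 libraries each, named by the spray received as seedlings at 2 weeks (the history) and then by the spray received at 5 weeks (the challenge). JA_JA plants had 1 mM jasmonic acid (JA) as seedlings and 0.1 mM JA as the challenge, and W_JA plants had water and then 0.1 mM JA. JA_W plants had 1 mM JA and then water, and W_W plants had water both times. All plants were Col-0, every spray held 0.02% Silwet L-77, and the water sprays carried ethanol to match the JA sprays. Leaves were harvested 4 h after the challenge, and each library pools 8 leaves of 2 plants (4 leaves a plant), so differences between single plants are averaged within a library. The labels call the libraries biological replicates.

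Indole glucosinolates are sulfur-rich defence compounds of the mustard family that are made from tryptophan. CYP79B2 and CYP79B3 are cytochromes P450 that turn tryptophan into indole-3-acetaldoxime, CYP83B1 oxidises the aldoxime, and the glutathione S-transferases GSTF9 and GSTF10 are assigned to the conjugation with glutathione that follows. UGT74B1 then adds glucose to the thiohydroximate, and the sulfotransferase SOT16 adds sulfate to complete the core. The aldoxime also feeds the phytoalexin camalexin and auxin, and in Arabidopsis leaves indole glucosinolates are known to build up after jasmonate treatment or herbivory.

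Totals ran from 32190193 to 34319939 counted reads per library, so that 1 read was worth about 0.0293 CPM (counted reads relative to a library total of 1e6). Levels below are CPM after TMM scaling, which evens out library composition. A gene was called changed at an adjusted p below 0.05 in edgeR's quasi-likelihood test with Benjamini-Hochberg adjustment over 19224 genes, and all 7 pathway genes were among those tested. The JA-responsive genes VSP2, LOX2 and JAZ10 rose in both challenges. VSP2 rose by 9.54 ± 0.32 (SE) on the log2 scale in W_JA against W_W and by 5.88 ± 0.27 in JA_JA against JA_W. It averaged 7436 ± 1432 CPM in JA_JA, 2735 ± 406 in W_JA, 126 ± 26.4 in JA_W and 3.69 ± 1.28 in W_W (SD, n = 4). The smaller rise of VSP2 with a JA history thus began from a higher unchallenged level and ended at a higher challenged level. Neither other gene was called in JA_JA against W_JA: LOX2 was at log2 0.32 ± 0.17 SE (edgeR adjusted p = 0.144) and JAZ10 at -0.38 ± 0.27 (adjusted p = 0.276). In JA_W against W_W, LOX2 was higher (0.90 ± 0.17, adjusted p = 0.000215) and JAZ10 was not called (-0.35 ± 0.40, adjusted p = 0.459). The root gene RHD6 had no read, and the root gene COBL9 averaged at most 0.0219 CPM in any group. The flower gene AP3 averaged at most 0.0396 CPM, and the flower gene AG was at 0.327 to 0.505 CPM in JA_JA, 0.1501 to 0.958 in W_JA, 0.221 to 0.713 in JA_W and 0.251 to 0.609 in W_W. The summed level of 4 mesophyll genes ran from 35890 to 46080 CPM in JA_JA, from 25320 to 34660 in W_JA, from 36290 to 45540 in JA_W and from 27000 to 36660 in W_W. The summed level of 3 guard cell genes ran from 61.0 to 97.6 CPM in JA_JA, from 64.8 to 75.3 in W_JA, from 64.6 to 71.4 in JA_W and from 38.6 to 56.3 in W_W. Of these 7 marker genes, 4 were higher in JA_W than in W_W, where 33.8% of all tested genes were higher, and in JA_JA against W_JA 5 were higher and the guard cell gene KAT1 was lower, where 18.9% of all genes were higher and 21.2% lower. The trichome gene GL2 was higher with a JA history in both comparisons, by log2 1.09 ± 0.16 SE in JA_W against W_W (edgeR adjusted p = 1.29e-05) and by 0.59 ± 0.15 in JA_JA against W_JA (adjusted p = 0.00693). The other trichome gene listed, GL1, had no read in any group. For genes with no read, such as GL1 and RHD6, absent RNA cannot be told apart from reads that were not counted. The phloem genes SUC2 and APL were not called in any challenge or history comparison. In the challenge comparisons 1 of the 7 mesophyll and guard cell markers was called in each. KAT1 was higher in W_JA than in W_W (log2 0.95 ± 0.17, edgeR adjusted p = 0.000598). The mesophyll gene CA1 was lower in JA_JA than in JA_W (-0.56 ± 0.20, adjusted p = 0.0437). The part of such differences in the results below was not tested. On the first principal component, which held 57.9% of the variance, the libraries nearest the opposite history within their groups were JA_JA replicate 4, W_JA replicate 3, JA_W replicate 1 and W_W replicate 4. W_JA replicates 1 and 3 lay at -26.5 and -18.9 there, apart from -46.8 and -43.0 for replicates 2 and 4. In leaf pools, fewer cells of a type and less RNA per cell cannot be told apart.

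The CYP79B pair makes the entry step, and its members lie on different chromosomes. CYP79B2 spans chr4:18525042-18527602 on the plus strand with 3 exon blocks, and CYP79B3 spans chr2:9488413-9491404 on the plus strand with 2 exon blocks, in the RefSeq annotation of TAIR10.1. None of their exonic 50-base words occurs at another place in that genome, so reads of the sequenced length that match them fully have 1 origin. The 250 bases before their annotated starts are shown because these homologues differed in their course over the groups while sharing a stretch of sequence there. The capitals mark an ungapped block of 40 bases with 1 mismatch, which begins 95 bases before the start of CYP79B2 and 169 bases before that of CYP79B3:
CYP79B2, chr4:18524792-18525041, plus strand: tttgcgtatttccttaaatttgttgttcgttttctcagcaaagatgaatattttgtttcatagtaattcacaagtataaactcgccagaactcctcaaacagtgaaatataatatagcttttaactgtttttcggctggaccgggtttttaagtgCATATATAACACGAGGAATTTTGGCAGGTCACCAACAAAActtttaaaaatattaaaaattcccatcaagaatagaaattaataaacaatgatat
CYP79B3, chr2:9488163-9488412, plus strand: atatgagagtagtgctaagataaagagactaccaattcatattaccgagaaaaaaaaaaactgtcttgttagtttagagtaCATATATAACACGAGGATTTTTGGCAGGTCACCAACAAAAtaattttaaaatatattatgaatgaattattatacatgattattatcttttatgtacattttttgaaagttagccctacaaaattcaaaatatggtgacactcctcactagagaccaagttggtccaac
The identical runs on each side of the mismatch, 17 and 22 bases long, each occurred in 2 of the 27443 upstream windows of protein-coding genes. In the other 20 pairs among the 7 genes, the best such block was 8 to 20 bases long. A shared block is a description of these windows and marks no binding site.

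CYP79B2 was highest in the challenged groups. It stood at 162, 151, 118 and 151 CPM in the JA_JA libraries and at 76.1, 139.9, 84.5 and 147 CPM in the W_JA libraries. It stood at 72.7, 47.2, 52.6 and 50.0 CPM in the JA_W libraries and at 103, 57.1, 75.8 and 75.5 CPM in the W_W libraries. The lowest JA_JA library lay above every library of JA_W and W_W, while the 4 W_JA libraries were spread over the W_W range and beyond it. The lower W_JA values were those of replicates 1 and 3, the libraries that also stood apart on the first principal component, whose part in these values was not tested. CYP79B2 rose 2.61-fold in JA_JA against JA_W (log2 1.39 ± 0.22 SE, edgeR adjusted p = 0.0002). In W_JA against W_W the log2 difference was 0.53 ± 0.22 (adjusted p = 0.0906). Over the 16 fits that left out 1 library it ran from 0.37 without W_JA replicate 4 (adjusted p = 0.265) to 0.69 without W_W replicate 1 (adjusted p = 0.039), and it passed there and without W_JA replicate 1 (0.66, adjusted p = 0.0386). In JA_W against W_W it was -0.48 ± 0.22 (adjusted p = 0.0651). With 1 library left out it ran from -0.64 without JA_W replicate 1 (adjusted p = 0.0226) to -0.32 without W_W replicate 1 (adjusted p = 0.23), and of these 16 fits 3 passed, the others being without W_W replicate 2 (-0.61, adjusted p = 0.0287) and without W_JA replicate 1 (-0.53, adjusted p = 0.0335). It passed with DESeq2 (-0.52, adjusted p = 0.038), with library totals in place of TMM (-0.59, adjusted p = 0.0391), with only those groups fitted (-0.52, adjusted p = 0.0333) and without both W_W replicate 4 and JA_W replicate 1 (-0.65, adjusted p = 0.0338), and it did not with RLE scaling (-0.52, adjusted p = 0.0523) or upper-quartile scaling (-0.39, adjusted p = 0.116). Between JA_JA and W_JA the difference was 0.38 ± 0.22 (adjusted p = 0.182), from 0.22 without W_JA replicate 1 (adjusted p = 0.439) to 0.54 without W_JA replicate 4 (adjusted p = 0.0813). Along the order JA_W, W_W, W_JA, JA_JA from low to high, no step between neighbours was called.

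CYP79B3 separated the groups more widely than any other gene of the pathway, and it was the one that rose with each treatment alone. It stood at 259.9, 249, 205 and 203 CPM in JA_JA and at 81.0, 103, 110.2 and 137 CPM in W_JA. It stood at 105, 86.7, 80.1 and 79.5 CPM in JA_W and at 30.7, 32.8, 40.2 and 38.6 CPM in W_W. All JA_JA libraries were above all others, all W_W libraries were below all others, and W_JA and JA_W overlapped. The means ± SD (n = 4 each) were 229 ± 29.5 CPM in JA_JA, 108 ± 23.0 in W_JA, 87.8 ± 11.8 in JA_W and 35.6 ± 4.55 in W_W. CYP79B3 rose 3.03-fold in W_JA against W_W (log2 1.60 ± 0.15 SE, adjusted p = 5.6e-07) and 2.61-fold in JA_JA against JA_W (log2 1.39 ± 0.15, adjusted p = 2.39e-06). A JA history alone went with a 2.47-fold higher level in JA_W than in W_W (log2 1.303 ± 0.15, adjusted p = 1.38e-06). Under challenge the level in JA_JA was 2.13-fold that in W_JA (log2 1.09 ± 0.15, adjusted p = 5.39e-05), and with both treatments it was 6.45-fold that in W_W (log2 2.69 ± 0.16, adjusted p = 6.32e-10). The step between W_JA and JA_W missed the threshold (0.29 ± 0.15, adjusted p = 0.0911). It was 0.16 without W_JA replicate 4 (adjusted p = 0.348) and 0.20 with upper-quartile scaling (adjusted p = 0.273), and it passed without W_JA replicate 1 (0.43, adjusted p = 0.0127), without JA_W replicate 1 (0.39, adjusted p = 0.0352) or without that library and W_W replicate 4 (0.39, adjusted p = 0.0364).

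CYP83B1, the enzyme that commits the aldoxime to glucosinolates, spans chr4:15273410-15275404 on the minus strand with 2 exon blocks. It stood at 465, 421, 335 and 513 CPM in JA_JA and at 489, 579.7, 369 and 595 CPM in W_JA. It stood at 290.1, 266, 291 and 293 CPM in JA_W and at 780.2, 454, 494 and 599 CPM in W_W. Every JA_W library was below every library of the other 3 groups, and those 3 groups overlapped one another. CYP83B1 was 2.04-fold lower in JA_W than in W_W (log2 -1.03 ± 0.18 SE, adjusted p = 8.4e-05), and it rose 1.52-fold in JA_JA against JA_W (log2 0.60 ± 0.18, adjusted p = 0.0147). It did not pass in W_JA against W_W (-0.19 ± 0.18, adjusted p = 0.46) or in JA_JA against W_JA (-0.23 ± 0.18, adjusted p = 0.311), and with 1 library left out these values ran from -0.30 to -0.02 and from -0.36 to -0.13. From low to high the groups ran JA_W, JA_JA, W_JA, W_W, and of the steps between neighbours the first was called. In JA_W against W_W its direction was opposite to that of CYP79B3, a gene of the step before it. CYP79B2, the other gene of that step, had the same sign as CYP83B1 but was not called (-0.48 ± 0.22, edgeR adjusted p = 0.0651).

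The glutathione S-transferase pair lies in tandem on chromosome 2. GSTF9 spans chr2:13138882-13140392 and GSTF10 spans chr2:13141290-13142676, both on the plus strand with 3 exon blocks and 897 bases apart with no gene between. In all, 12 exonic bases of GSTF10 overlap the antisense gene AT2G30880, and since the strand setting of the counting is not given, reads in that overlap cannot be assigned. No exonic 50-base word of either gene occurs elsewhere in the genome. Their upstream windows are shown because these neighbours took different courses across the groups. The capitals mark matches to 3 motifs searched on both strands: CACGTG, the G-box bound by MYC-type factors, its variant CACATG, and TTGAC, the core bound by WRKY factors, which reads GTCAA on the other strand:
GSTF9, chr2:13138632-13138881, plus strand: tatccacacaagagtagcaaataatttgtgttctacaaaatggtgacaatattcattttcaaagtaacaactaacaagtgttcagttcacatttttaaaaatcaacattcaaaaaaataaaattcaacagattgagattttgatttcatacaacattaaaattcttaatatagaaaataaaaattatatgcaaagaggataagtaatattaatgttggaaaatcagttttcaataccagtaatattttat
GSTF10, chr2:13141040-13141289, plus strand: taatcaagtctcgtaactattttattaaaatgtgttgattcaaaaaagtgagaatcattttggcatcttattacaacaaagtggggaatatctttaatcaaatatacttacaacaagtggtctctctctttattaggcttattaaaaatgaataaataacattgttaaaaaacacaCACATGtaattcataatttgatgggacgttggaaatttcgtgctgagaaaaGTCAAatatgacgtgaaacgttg
GSTF10 held 1 match to CACATG, 74 bases before the start, and 1 to TTGAC, 23 bases before it, and these matches do not overlap. GSTF9 and the other 5 genes held no match to any of the 3 motifs in their windows. Of all 27443 windows of this length, 6.49% held CACGTG, 11.1% held CACATG and 44.9% held TTGAC.

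GSTF9 rose with the challenge in plants of either history, and its challenged level was higher in those with a JA history. It stood at 1025, 1099, 924 and 849.5 CPM in JA_JA and at 703, 788, 621 and 820.5 CPM in W_JA. It stood at 455, 521, 552 and 455 CPM in JA_W and at 455, 437, 416 and 467 CPM in W_W. The JA_JA libraries were all above the W_JA libraries, these were all above the unchallenged ones, and JA_W and W_W overlapped. GSTF9 rose 1.65-fold in W_JA against W_W (log2 0.72 ± 0.11 SE, adjusted p = 0.000159) and 1.97-fold in JA_JA against JA_W (log2 0.98 ± 0.11, adjusted p = 6e-06). Between JA_JA and W_JA the fold was 1.33 (log2 0.41 ± 0.11, adjusted p = 0.00896), while JA_W and W_W differed by log2 0.16 ± 0.11 (adjusted p = 0.227), the step not called along the order W_W, JA_W, W_JA, JA_JA from low to high.

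GSTF10 was lowest in the plants with a JA history and no challenge. It stood at 211, 184, 208.5 and 265 CPM in JA_JA and at 322, 363, 257.5 and 324 CPM in W_JA. It stood at 120.2, 111, 119 and 112 CPM in JA_W and at 299, 254, 214 and 249.6 CPM in W_W. All JA_W libraries were below all others, and JA_JA overlapped W_JA through JA_JA replicate 4 and overlapped W_W as well. GSTF10 was 2.20-fold lower in JA_W than in W_W (log2 -1.14 ± 0.13 SE, adjusted p = 1.2e-06) and 1.46-fold lower in JA_JA than in W_JA (log2 -0.54 ± 0.13, adjusted p = 0.00319). It rose 1.88-fold in JA_JA against JA_W (log2 0.91 ± 0.13, adjusted p = 4.09e-05). In W_JA against W_W the difference was log2 0.32 ± 0.13 (adjusted p = 0.0742), which passed the threshold without W_W replicate 1 (0.41, adjusted p = 0.0343) or W_JA replicate 3 (0.41, adjusted p = 0.0264) and was 0.24 without W_W replicate 3 (adjusted p = 0.214) and 0.20 with library totals in place of TMM (adjusted p = 0.233). From low to high the order was JA_W, JA_JA, W_W, W_JA, and the first step was called.

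UGT74B1, the glucosyltransferase, varied least, and JA_JA alone stood apart. The gene spans chr1:8525334-8527087 on the minus strand with 2 exon blocks. It stood at 119, 104, 99.4 and 113 CPM in JA_JA and at 86.6, 82.9, 91.2 and 85.7 CPM in W_JA. It stood at 96.3, 83.0, 89.3 and 86.8 CPM in JA_W and at 91.25, 81.0, 94.3 and 95.6 CPM in W_W. All JA_JA libraries were above all of the others, which lay within one range. UGT74B1 rose 1.23-fold in JA_JA against JA_W (log2 0.29 ± 0.08 SE, adjusted p = 0.01) and was 1.26-fold higher in JA_JA than in W_JA (log2 0.33 ± 0.08, adjusted p = 0.00424). These small differences depended on the scaling. With library totals in place of TMM the edgeR adjusted p was 0.108 against JA_W and 0.0562 against W_JA. Against W_W the difference was then log2 0.06 (adjusted p = 0.613), where TMM gave 0.27 ± 0.08 (adjusted p = 0.00885). W_JA and W_W differed by log2 -0.06 ± 0.08 (adjusted p = 0.61), and JA_W and W_W by -0.03 ± 0.08 (adjusted p = 0.781). Of the order W_JA, JA_W, W_W, JA_JA from low to high, the last step was called.

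SOT16, the sulfotransferase of the last step, was highest in plants that never received JA. Its single exon spans chr1:27864345-27865694 on the minus strand, 151 bases from SOT18 on the opposite strand. It stood at 101, 90.9, 84.65 and 95.8 CPM in JA_JA and at 85.7, 104, 70.4 and 117 CPM in W_JA. It stood at 88.5, 83.2, 91.0 and 81.7 CPM in JA_W and at 163, 115, 123 and 134 CPM in W_W. The W_W libraries were above all libraries of JA_JA and JA_W, and the highest W_JA library lay just above the lowest W_W library. SOT16 was 1.42-fold lower in W_JA than in W_W (log2 -0.50 ± 0.14 SE, adjusted p = 0.011), and the adjusted p was 0.0525 when only those groups were fitted. It was also lower in JA_W than in W_W (log2 -0.64 ± 0.14, adjusted p = 0.000607). The JA_JA level differed from that of JA_W by 0.11 ± 0.14 (adjusted p = 0.562) and from that of W_JA by -0.02 ± 0.14 (adjusted p = 0.919), so that of the order JA_W, JA_JA, W_JA, W_W from low to high the last step was called.

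**Figure D1:**
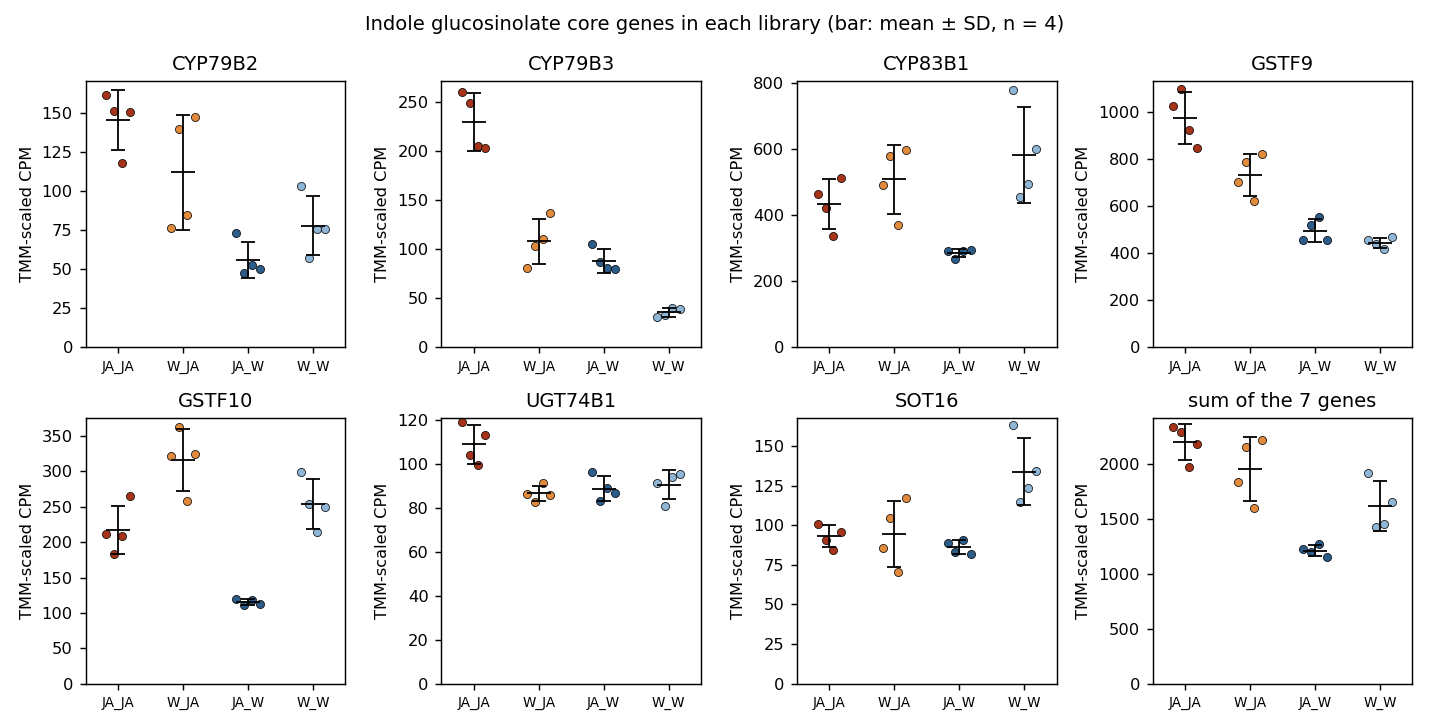
Level of each of the 7 genes in TMM-scaled CPM (y axis from 0, own scale per panel) and of their sum in the groups JA_JA, W_JA, JA_W and W_W from left to right, where points are libraries and bars are mean ± SD (n = 4). CYP79B3 was highest in JA_JA and lowest in W_W, CYP83B1 and GSTF10 were lowest in JA_W, and SOT16 was highest in W_W.

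The response of the pathway to the challenge was read in plants of each history in turn. In JA_JA against JA_W, 6 of the 7 genes rose and SOT16 did not pass, with 15.4% of all tested genes higher and 31.9% called in either direction. The replicates did not overlap for those 6 genes, against 33.5% of all genes. The median log2 change of the 7 genes was 0.91, beside -0.01 over all genes. In W_JA against W_W, 2 rose (CYP79B3 and GSTF9) and SOT16 fell, with 13.9% of all genes higher, 12.9% lower and 26.8% called in all. The median over the 7 genes was 0.32, beside -0.0032 over all genes, and the replicates did not overlap for 2 of them, against 24.7% of all genes. Without W_W replicate 1, 5 genes were called in W_JA against W_W, CYP79B2 and GSTF10 being added as higher. Over all genes that fit called 4317 of 19352.

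The lasting difference with history was read without and under challenge. In JA_W against W_W, CYP79B3 was higher and CYP83B1, GSTF10 and SOT16 were lower, with 33.8% of all tested genes higher and 31.1% lower. With 64.9% of all genes called in that comparison, 4 of 7 is near the background. The median log2 difference of the 7 genes was -0.48, beside 0.05 over all genes, and the replicates of 4 genes did not overlap, against 59.4% of all genes. In JA_JA against W_JA, CYP79B3, GSTF9 and UGT74B1 were higher and GSTF10 was lower, with 18.9% of all genes higher, 21.2% lower and 40.1% called in all. The median of the 7 genes there was 0.33, beside 0.01 over all genes, and 3 did not overlap, against 32.6% of all genes. These comparisons share libraries with those of the challenge, so their values are not independent of each other.

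The difference between the challenge responses of the 2 histories was tested as an interaction. It was positive for CYP83B1 (log2 0.80 ± 0.25 SE, adjusted p = 0.0345), SOT16 (0.62 ± 0.19, adjusted p = 0.0347), GSTF10 (0.59 ± 0.18, adjusted p = 0.0298) and UGT74B1 (0.36 ± 0.11, adjusted p = 0.0374). CYP83B1, GSTF10 and SOT16 were lower in JA_W than in W_W, and none of them was called higher in JA_JA than in W_JA. SOT16 fell in W_JA against W_W and was not called in JA_JA against JA_W (0.11 ± 0.14, edgeR adjusted p = 0.562). The 4 positive calls of 7 compare with 8.01% of all genes called with a positive interaction, 10.4% with a negative one and 18.4% in all, and the median was 0.59, beside -0.003 over all genes. For CYP79B2 it was 0.86 ± 0.31 (adjusted p = 0.0657), which passed with DESeq2 (adjusted p = 0.0271) and without W_W replicate 2, W_JA replicate 2, W_JA replicate 4 or JA_W replicate 1 (1.02 at most), or W_W replicate 4 and JA_W replicate 1 together (1.03, adjusted p = 0.0332), and was 0.70 without W_W replicate 1 (adjusted p = 0.138). It was 0.25 ± 0.16 (adjusted p = 0.29) for GSTF9 and -0.21 ± 0.21 (adjusted p = 0.509) for CYP79B3. The 4 calls were close to the threshold: edgeR called 0 of the 7 without W_W replicate 1, JA_W replicate 2 or JA_W replicate 4, 1 without W_JA replicate 3 or JA_JA replicate 1, and 2 without W_JA replicate 1 or JA_W replicate 3. In each of those fits 5 of the 7 genes had an unadjusted p below 0.05. Calls over all tested genes fell as well, from 3539 of 19224 with all libraries. They were 2707, 2344 and 2858 in the fits with 0 of the 7, in the order named. They were 3009 and 2538 in those with 1, and 3170 and 2797 in those with 2, with 19352 to 19394 genes tested. Over the 16 fits that left out 1 library, the interaction ran from 0.62 to 0.94 for CYP83B1, from 0.50 to 0.74 for SOT16, from 0.50 to 0.71 for GSTF10 and from 0.31 to 0.44 for UGT74B1. The UGT74B1 call was also lost with library totals in place of TMM (0.39, adjusted p = 0.0604) and with no low-count filter (0.36, adjusted p = 0.0617), where its size was about that with TMM or above it. DESeq2 with all libraries called 5 of the 7.

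**Figure D2:**
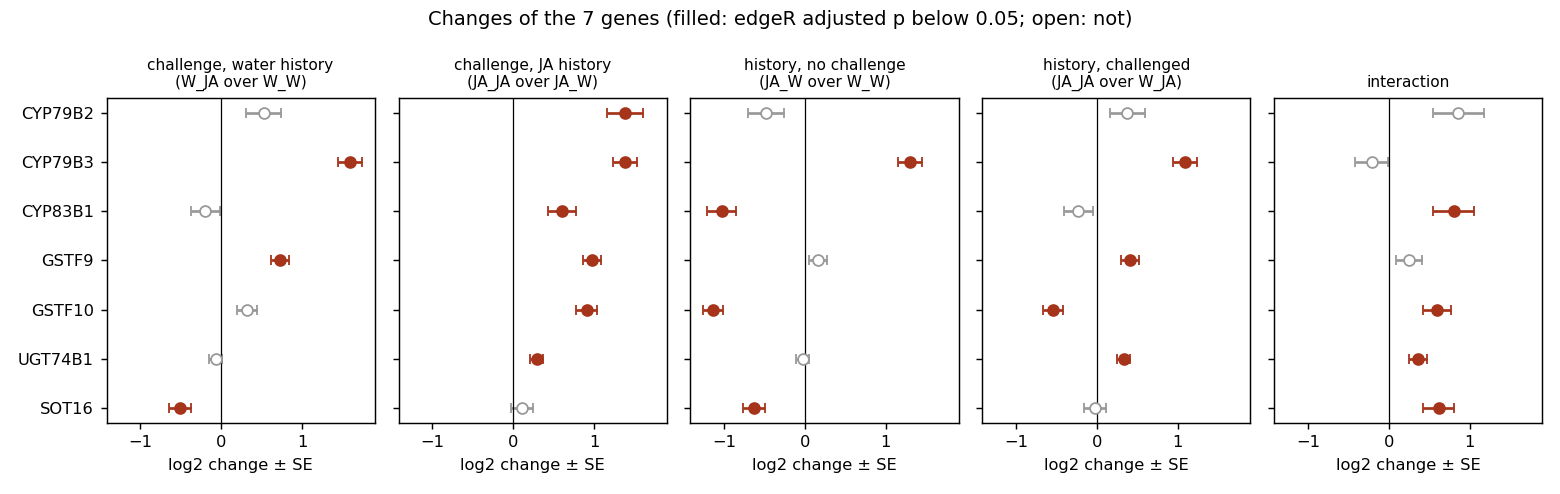
Log2 change of each gene with its SE from the edgeR fit (n = 4 libraries per group) for the 2 challenge comparisons, the 2 history comparisons and the interaction; filled points passed an adjusted p of 0.05 and open points did not. Points to the right of 0 are higher in the first named group, as 6 of 7 were called in JA_JA against JA_W, beside 15.4% of all tested genes.

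The extremes of the design were also set against each other. In JA_JA against W_W, 4 genes were higher (CYP79B2, CYP79B3, GSTF9 and UGT74B1) and 2 were lower (CYP83B1 and SOT16), while 30.6% of all tested genes were higher, 29.1% lower and 59.8% called in all. The median log2 difference of the 7 genes was 0.27, beside 0.03 over all genes, and the replicates of 5 genes did not overlap, against 50.9% of all genes. CYP79B2 was higher by log2 0.90 ± 0.22 SE (adjusted p = 0.00239) and GSTF9 by 1.13 ± 0.11 (adjusted p = 4.16e-07). SOT16 was lower (log2 -0.52 ± 0.14, adjusted p = 0.00335). CYP83B1 at -0.42 ± 0.18 (adjusted p = 0.0466) lost the call in 10 of the 16 fits that left out 1 library, and with only those groups fitted (adjusted p = 0.0724), with upper-quartile scaling (adjusted p = 0.0777), with no low-count filter (adjusted p = 0.0508) or without both W_W replicate 4 and JA_W replicate 1 (adjusted p = 0.0855). Its value was -0.25 (adjusted p = 0.215) without W_W replicate 1 and -0.35 (adjusted p = 0.128) without JA_JA replicate 3. In the other 8 of those fits the value lay between -0.46 and -0.41, and with only those groups fitted it was -0.43. UGT74B1 at 0.27 ± 0.08 (adjusted p = 0.00885) was at 0.06 (adjusted p = 0.613) with library totals in place of TMM. GSTF10 at -0.23 ± 0.13 (adjusted p = 0.131) passed as lower without JA_JA replicate 4 (-0.35, adjusted p = 0.0266) and with library totals (-0.44, adjusted p = 0.00464), and it was -0.14 without W_W replicate 1 (adjusted p = 0.378).

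W_JA was also set against JA_W, that is 0.1 mM JA 4 h before harvest against 1 mM JA at the seedling stage. Dose, plant age at treatment and time since treatment cannot be told apart here. In this comparison 4 genes were higher and none was lower, while 30.3% of all tested genes were higher, 29.7% lower and 60% called in all. The largest difference was that of GSTF10, 2.74-fold higher (log2 1.46 ± 0.13 SE, adjusted p = 1.75e-07). CYP79B2 was higher by 1.01 ± 0.22 (adjusted p = 0.00103), CYP83B1 by 0.83 ± 0.18 (adjusted p = 0.000674) and GSTF9 by 0.57 ± 0.11 (adjusted p = 0.000409). The median of the 7 genes was 0.57, beside -0.01 over all genes, and replicates did not overlap for those 4 genes, against 53.3% of all genes.

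Summed over the 7 genes, the level was 2342, 2300, 1974 and 2190 CPM in JA_JA, 1843, 2161, 1604 and 2227 CPM in W_JA, 1227, 1198, 1274 and 1158 CPM in JA_W and 1923, 1430, 1458 and 1659 CPM in W_W. The JA_W sums were the lowest of the 4 groups, with no overlap with any other. Per kilobase of exon, GSTF9 had the highest mean level of the 7 genes in every group, at 790.3 ± 89.1 CPM per kb in JA_JA, 595 ± 72.7 in W_JA, 402 ± 39.7 in JA_W and 360.0 ± 18.1 in W_W (SD, n = 4). The lowest level per kilobase changed with the group. In JA_JA it was that of UGT74B1 (65.2 ± 5.29 CPM per kb), close to CYP79B2 at 68.0 ± 8.92 and SOT16 at 69.0 ± 5.19. In W_JA the lowest was CYP79B3 (48.1 ± 10.3 CPM per kb), within the spread of UGT74B1 at 51.8 ± 2.06 and CYP79B2 at 52.4 ± 17.3. In JA_W it was CYP79B2 (26.0 ± 5.44 CPM per kb), and in W_W it was CYP79B3 (15.9 ± 2.03 CPM per kb).

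Ratios of 2 genes within a library do not depend on library scaling, and 4 of them were compared between groups. They were tested as log2 count ratios with an exact two-sided permutation test over 4 against 4 libraries, whose smallest possible p is 0.0286, with adjustment over 16 tests. In all, 10 of the 16 reached that smallest p and share an adjusted p of 0.0458. Leaving out 1 library kept the sign of each of the 10, but the call was lost in 38 of 80 such repeats: in all 8 that use W_W without W_W replicate 1, and in all 6 that use W_JA without any 1 of the W_JA libraries. The CYP79B2/CYP79B3 difference between JA_JA and W_JA lost it without any 1 of the 8 libraries of these groups, and that of GSTF9/GSTF10 also without JA_JA replicate 1 or 2. The CYP79B2/CYP79B3 count ratio averaged 0.636 ± 0.0727 in JA_JA, 1.04 ± 0.250 in W_JA, 0.631 ± 0.0634 in JA_W and 2.23 ± 0.749 in W_W (SD, n = 4). CYP79B2 was thus the more counted of the pair in every W_W library and the less counted in every library with a JA history. The difference of mean log2 ratios was -1.09 for W_JA minus W_W, -1.78 for JA_W minus W_W and -0.68 for JA_JA minus W_JA, each with an exact p = 0.0286 and an adjusted p = 0.0458. Between JA_JA and JA_W it differed by 0.01 (exact p = 0.943), so no difference was detected in that pair of groups with this number of libraries.

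In the tandem pair, the GSTF9/GSTF10 count ratio averaged 4.62 ± 1.14 in JA_JA, 2.32 ± 0.177 in W_JA, 4.30 ± 0.447 in JA_W and 1.765 ± 0.186 in W_W (SD, n = 4). The lowest library with a JA history had a ratio of 3.21, and the highest with a water history had 2.53. On the log2 scale the ratio was higher by 1.28 in JA_W than in W_W, by 0.96 in JA_JA than in W_JA and by 0.40 in W_JA than in W_W, each with an exact p = 0.0286 and an adjusted p = 0.0458. JA_JA and JA_W differed by 0.07 (exact p = 0.714, adjusted p = 0.762).

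The other ratios set SOT16 and CYP83B1 against their counterparts for methionine-derived (aliphatic) glucosinolates, SOT18 and CYP83A1. SOT16/SOT18 averaged 0.806 ± 0.138 in JA_JA, 1.26 ± 0.421 in W_JA, 0.976 ± 0.0640 in JA_W and 3.59 ± 1.56 in W_W (SD, n = 4). CYP83B1/CYP83A1 averaged 1.255 ± 0.349 in JA_JA, 1.85 ± 0.512 in W_JA, 0.881 ± 0.0933 in JA_W and 4.42 ± 2.45 in W_W. In both ratios every W_W library was above every library of the other groups. The log2 SOT16/SOT18 ratio differed by -1.49 for W_JA minus W_W and by -1.80 for JA_W minus W_W, and the log2 CYP83B1/CYP83A1 ratio by -1.17 and -2.20 for the same groups, each with an exact p = 0.0286 and an adjusted p = 0.0458. W_W replicate 1 had the highest value of both ratios, and without it these differences were -1.22, -1.53, -0.83 and -1.87 in that order. Between JA_JA and JA_W neither passed the adjustment, at -0.29 (exact p = 0.0857, adjusted p = 0.105) for SOT16/SOT18 and 0.48 (exact p = 0.0571, adjusted p = 0.0831) for CYP83B1/CYP83A1. Between JA_JA and W_JA the differences were -0.60 (exact p = 0.0857, adjusted p = 0.105) and -0.55 (exact p = 0.114, adjusted p = 0.13). Whether the shift with the challenge differed between histories was not tested for any ratio.

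**Figure D3:**
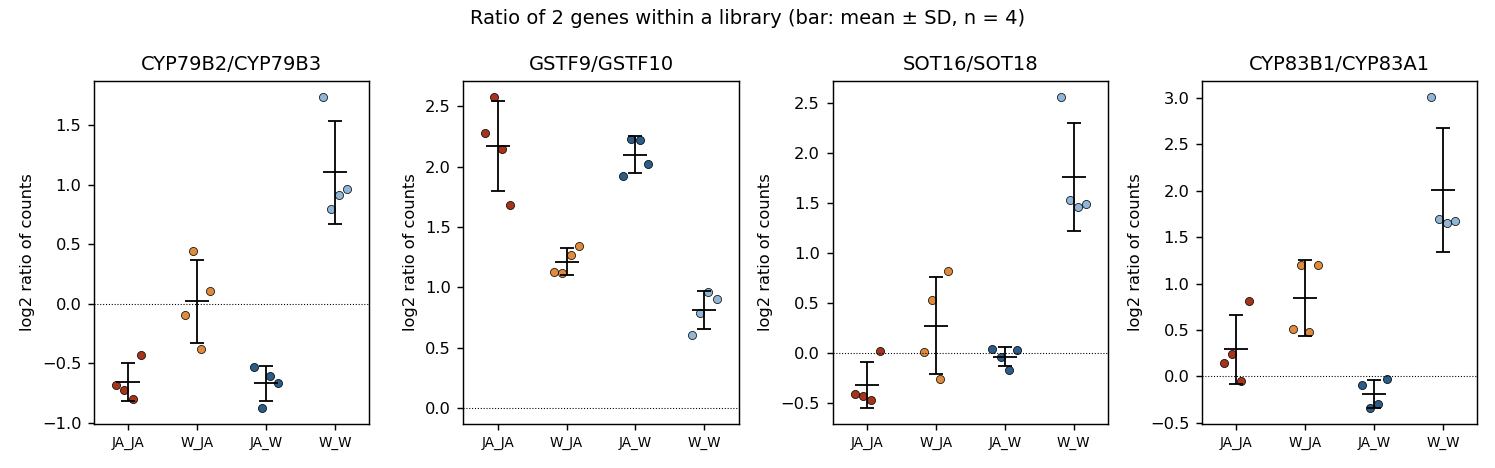
Log2 count ratio within each library for CYP79B2/CYP79B3, GSTF9/GSTF10, SOT16/SOT18 and CYP83B1/CYP83A1 in JA_JA, W_JA, JA_W and W_W from left to right; points are libraries and bars are mean ± SD (n = 4), with a dotted line at equal counts. The mean CYP79B2/CYP79B3 ratio was 1.11 in W_W and below 0 in both groups with a JA history, and the mean GSTF9/GSTF10 ratio was 2.17 in JA_JA and 2.098 in JA_W.

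The profiles of the 7 genes over the 16 libraries were compared by the root mean square difference of log2 levels, each gene centred on its own mean. CYP83B1 was nearest to SOT16 (0.275) and to GSTF10 (0.286), which share its lower level in JA_W than in W_W. CYP79B2 was nearest to GSTF9 (0.357) and lay farther from its homologue CYP79B3 (0.762). CYP79B3 lay farthest from CYP83B1 and from SOT16 (1.17 each). Of the genes outside the pathway, TSB2, a tryptophan synthase beta subunit, was the one nearest to CYP79B2 (0.222) of 17016 candidates with a mean of at least 1 CPM, followed by AT1G19680, a RING/U-box protein, and LAP1, an aminopeptidase. The nearest to CYP79B3 were AT2G41312 (0.216), BGLU5 (0.238) and AT1G07743 (0.256). CYP83B1 had AT3G52240 (0.178), ABCG24 (0.182) and PUB14 (0.184), and GSTF9 had PAO3 (0.135), MGT9 (0.154) and AT4G08170 (0.164). GSTF10 had NYE1 (0.144), CRK19 (0.162) and AT4G02370 (0.164). UGT74B1 had AT5G55060 (0.0868), AT3G16010 (0.102) and AT4G37480 (0.103), and SOT16 had SEC3B (0.13), AT2G45540 (0.137) and MPK6 (0.143). These are descriptions over libraries that share the same 4 groups, and small distances are easier to reach for a gene that varies little, such as UGT74B1, whose own spread was 0.154.

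Genes around the core were read from lists in the same fit, in the challenge, history and interaction comparisons. Medians over all tested genes in these comparisons are those given above for the core genes. Of 5 genes shared with other glucosinolates, GGP1, APK1 and APK2 rose in W_JA against W_W and in JA_JA against JA_W, where 13.9% and 15.4% of all tested genes rose. GGP1, a peptidase that trims the glutathione conjugate between the steps of the GSTF enzymes and UGT74B1, averaged 385.5 ± 13.1 CPM in JA_JA, 372 ± 57.3 in W_JA, 165 ± 14.1 in JA_W and 175 ± 14.6 in W_W. It rose by log2 1.23 ± 0.11 SE in JA_JA against JA_W (adjusted p = 3.52e-07) and by 1.09 ± 0.11 in W_JA against W_W (adjusted p = 1.57e-06). APK1 and APK2 make the activated sulfate that SOT16 uses, and they were also higher with a JA history in both history comparisons, where 33.8% (JA_W against W_W) and 18.9% (JA_JA against W_JA) of all genes were higher. APK1 averaged 203 ± 17.5 CPM in JA_JA, 139 ± 14.4 in W_JA, 124 ± 10.1 in JA_W and 78.2 ± 7.21 in W_W, an order unlike that of SOT16. GGP3 was the 1 list gene lower in JA_W than in W_W (log2 -0.25 ± 0.08, adjusted p = 0.00865). None of the 5 passed the interaction in edgeR or DESeq2, and 0 had an unadjusted p below 0.05 there.

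The regulators of the branch moved apart from each other. Of 6 tested, 3 rose and 2 fell in W_JA against W_W and 3 rose and 1 fell in JA_JA against JA_W, where 26.8% and 31.9% of all tested genes were called. In JA_W against W_W 2 were higher and 3 lower, beside 64.9% of all genes called, and in JA_JA against W_JA 3 were lower, beside 21.2% of all genes. For the interaction 2 were positive and 2 negative, beside 18.4% of all genes called. MYC2 is listed at 0 in all libraries. The counting settings are not given, so absent RNA cannot be told apart here from reads that were not counted. MYB34, an activator of the CYP79B genes and CYP83B1, averaged 38.2 ± 7.59 CPM in JA_JA, 29.7 ± 3.93 in W_JA, 38.9 ± 2.36 in JA_W and 14.02 ± 3.36 in W_W. It was higher by log2 1.47 ± 0.165 SE in JA_W than in W_W (adjusted p = 1.3e-06) and rose by 1.09 ± 0.16 in W_JA against W_W (adjusted p = 0.000126). MYB51, another activator of indole glucosinolate genes, averaged 6.93 ± 3.50 CPM in JA_JA, 23.5 ± 4.57 in W_JA, 4.84 ± 1.34 in JA_W and 58.1 ± 9.03 in W_W. It was lower in JA_W than in W_W (log2 -3.58 ± 0.31, adjusted p = 2.33e-07). MYB122 had no read in the JA_W libraries and 124 reads in the W_W libraries together, at least 38.7-fold lower against a floor of 3 reads over the group.

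Tryptophan synthesis supplies the substrate of CYP79B2 and CYP79B3. Of its 11 genes, 8 rose and 1 fell in JA_JA against JA_W with a median log2 change of 1.22, beside 15.4% of all tested genes higher and 16.5% lower, and 6 rose in W_JA against W_W with a median of 0.37, beside 13.9% higher. In JA_W against W_W, 4 were higher and 6 lower with a median of -0.68, where 64.9% of all genes were called. In JA_JA against W_JA 4 were higher, beside 18.9% of all genes, and 6 had a positive and 2 a negative interaction, beside 8.01% and 10.4%. TSA1, the tryptophan synthase alpha subunit, averaged 285 ± 21.4 CPM in JA_JA, 196 ± 16.7 in W_JA, 47.6 ± 2.75 in JA_W and 151 ± 14.8 in W_W. Its interaction was log2 2.21 ± 0.13 SE (adjusted p = 1.27e-07), and it was lower in JA_W than in W_W (-1.67 ± 0.09, adjusted p = 4.17e-09). CYP79B2, CYP83B1, GSTF10 and SOT16 had their lowest mean levels in that same group. For CYP79B2 and SOT16 the step to the next group was not called.

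The camalexin genes use the same aldoxime. All 4 were lower in JA_W than in W_W with a median log2 difference of -3.98, where 31.1% of all tested genes were lower, and all 4 in JA_JA than in W_JA with a median of -2.95, where 21.2% were. PAD3, which forms camalexin, stood at 4.68, 4.76, 4.31 and 22.8 CPM in JA_JA, 63.05, 147, 42.8 and 73.45 CPM in W_JA, 24.7, 3.29, 4.48 and 4.855 CPM in JA_W and 219, 227.5, 229 and 167 CPM in W_W. In JA_JA and in JA_W 1 library lay well above the other 3, yet below every library with a water history. In JA_JA against JA_W edgeR called 0 of the 4 (2 at an unadjusted p below 0.05) and DESeq2 called 1. In W_JA against W_W 2 fell in edgeR, beside 12.9% of all genes, and DESeq2 called 1, and for the interaction edgeR and DESeq2 called 0, with 0 at an unadjusted p below 0.05.

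Enzymes that decorate the finished indole glucosinolate split by member. Of 8 tested, 3 rose and 3 fell in W_JA against W_W, and 4 rose and 2 fell in JA_JA against JA_W, beside 26.8% and 31.9% of all tested genes called. In JA_W against W_W, 1 was higher and 6 lower, with a median log2 difference of -1.58, beside 33.8% of all genes higher and 31.1% lower. In JA_JA against W_JA 2 were higher and 5 lower, beside 18.9% and 21.2% of all genes, and 1 had a negative interaction in edgeR, beside 10.4%, where DESeq2 called 2. IGMT5, a methyltransferase of the branch, averaged 137 ± 24.0 CPM in JA_JA, 94.1 ± 15.7 in W_JA, 3.26 ± 0.77 in JA_W and 0.84 ± 0.24 in W_W. CYP81F4, a hydroxylase of the branch, had 583 reads in JA_JA and 272 in W_JA, and none in JA_W or W_W, so it was at least 209-fold higher in JA_JA than in JA_W and at least 99.4-fold higher in W_JA than in W_W, against 3 reads over the group. CYP81F2, a hydroxylase acting on another ring position, averaged 1.58 ± 0.64 CPM in JA_JA, 3.22 ± 1.72 in W_JA, 5.04 ± 0.63 in JA_W and 16.0 ± 2.27 in W_W.

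Among 6 transport and breakdown genes, 3 rose in JA_JA against JA_W, beside 15.4% of all tested genes, and 1 rose and 1 fell in W_JA against W_W, beside 26.8% called. DESeq2 called 5 in the first of these and 3 in the second, and 5 had an unadjusted p below 0.05 in edgeR in each. GTR1, a glucosinolate importer, rose by log2 1.63 ± 0.15 SE in W_JA against W_W (adjusted p = 3.86e-07). All 6 were called in JA_W against W_W, 3 in each direction, and in JA_JA against W_JA, 2 higher and 4 lower, where 64.9% and 40.1% of all genes were called. The interaction was positive for 1 and negative for 1, beside 18.4% of all genes called. The myrosinase TGG2 averaged 1974 ± 88.0 CPM in JA_JA, 696 ± 81.6 in W_JA, 1525 ± 139 in JA_W and 583 ± 62.8 in W_W, and the exporter PEN3 averaged 464 ± 155, 1047 ± 143, 314 ± 54.8 and 1517 ± 409 CPM in those groups in the same order.

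The aliphatic branch runs through counterparts of the same steps, and 7 of its 8 listed genes were tested. GSTF11 is listed at 0 in all libraries, with the same limit as for MYC2. All 7 rose in W_JA against W_W with a median log2 change of 0.95, and all 7 were higher in JA_W than in W_W with a median of 1.165, where 13.9% and 33.8% of all tested genes were higher. In JA_JA against JA_W 1 rose (SOT18, log2 0.40 ± 0.15 SE, adjusted p = 0.048) with a median of 0.07, beside 15.4% of all genes, while DESeq2 called 2 and 2 had an unadjusted p below 0.05 in edgeR. In JA_JA against W_JA 4 were higher, beside 18.9%, and 5 had a negative interaction with a median of -0.83, beside 10.4%. The medians of the 7 indole genes were 0.32 in W_JA against W_W, -0.48 in JA_W against W_W, 0.91 in JA_JA against JA_W and 0.59 for the interaction. SOT18 averaged 117 ± 16.8 CPM in JA_JA, 77.2 ± 9.18 in W_JA, 88.7 ± 9.72 in JA_W and 40.0 ± 8.90 in W_W. CYP83A1 averaged 353 ± 52.4, 280.5 ± 42.5, 325 ± 26.7 and 145 ± 37.9 CPM in those groups in the same order. The difference between the branches was tested only through the ratios SOT16/SOT18 and CYP83B1/CYP83A1.

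**Figure D4:**
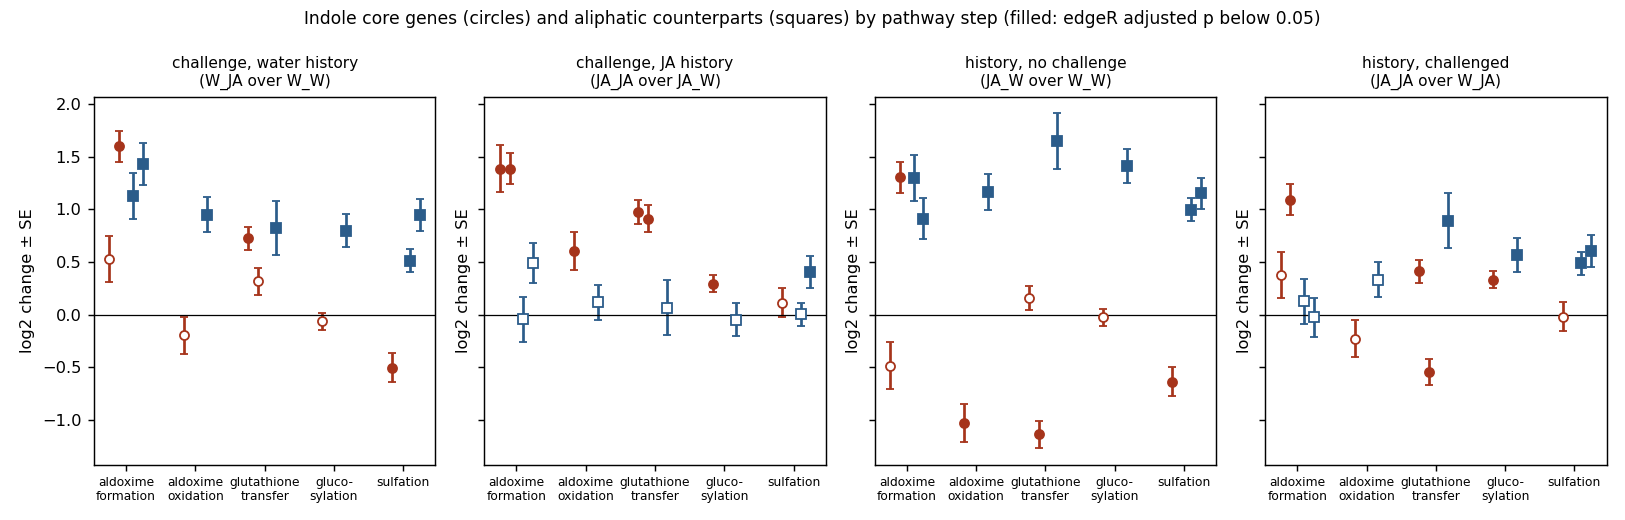
Log2 change ± SE from the edgeR fit (y axis) of each indole core gene (circles) and each tested aliphatic counterpart (squares), by pathway step (x axis), in the 2 challenge and the 2 history comparisons; filled marks passed an adjusted p of 0.05, and values above 0 are higher in the first named group. All 7 aliphatic genes were called higher in W_JA against W_W and 1 in JA_JA against JA_W, and of the indole genes 2 were called higher in the first and 6 in the second. Of all tested genes, 13.9% were higher in the first and 15.4% in the second. These counts were not tested between the branches.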

How the data were processed

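Poly(A) RNA was read as 50 bp single-end reads in 16 libraries, 4 for each group, and the labels assign each library to its group. The submitters' processing notes name HTSeq 0.9.1, STAR 2.6.1b, Trimmomatic 0.38 and, as genome build, TAIR10; their settings, strand handling and treatment of reads with several matches are not given in the sources used here. The authors deposited, per the file headers, raw read counts and CPM for each gene and library. The deposited CPM equal the count over the library total to within 5.09e-11 and served only as that check.

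The counts were filtered with filterByExpr in edgeR 4.0.16 (minimum count 10, minimum total 15), which kept 19224 genes and removed 15038. They were scaled by TMM (factors 0.888 to 1.14) and fitted with 1 mean per group over all 16 libraries, with 12 degrees of freedom left and a biological variation (as a coefficient) of 15.4%. Comparisons used the robust quasi-likelihood F-test with Benjamini-Hochberg adjustment over all tested genes and a threshold of 0.05, and the SE is the log2 change over the square root of F. Ratios used log2 of counts plus 0.5. The scripts were tested on simulated data. The genes and lists were chosen with earlier results of these data known. From each list the text names genes among the 3 with the largest change among those called in a comparison, or the 1 with the smallest p, and gives their levels in all groups. Sequences were read from RefSeq TAIR10.1, whose release is not the TAIR10 build of the notes by name, and none of the files holds coordinates. Alternatives were DESeq2 1.42.0, RLE and upper-quartile scaling, library totals, no filter, 1 CPM in 4 libraries, fits of the compared groups only, a replicate block, each library left out, and W_W replicate 4 and JA_W replicate 1 left out together. JA_JA replicate 4 and W_JA replicate 3, also nearest the opposite history on the first principal component within their groups, were left out only singly.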

Additional observations from a re-analysis of the deposited data

Results flagged for a closer look

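In 4 of 44 sets of 4 libraries tested, 1 library lay farther from the others than Dixon's 95% limit of 0.829 allows, where chance gives about 1 in 20. CYP83B1 in JA_W replicate 2 was at 266 CPM, below the 290.1 to 293 CPM of the other JA_W libraries (gap over range 0.895 on the log2 scale). The log2 SOT16/SOT18 ratio was 2.57 in W_W replicate 1 (0.937) and 0.0173 in JA_JA replicate 4 (0.885), each above the other libraries of its group. The log2 CYP83B1/CYP83A1 ratio was 3.02 in W_W replicate 1 (0.97), above the other W_W libraries.

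The challenge response differed between the JA history and the water history by the edgeR interaction test for CYP83B1 (log2 0.80), GSTF10 (0.59), UGT74B1 (0.36) and SOT16 (0.62). The adjusted p of each lay close to the threshold.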

How the results depend on the processing

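No gene's change and no ratio that was called changed direction under any alternative listed. The number of the 7 genes called stayed within 1.5 times under DESeq2, the other scalings and filters and the fits of the compared groups. Leaving out 1 library gave 3 to 5 calls in W_JA against W_W (5 without W_W replicate 1), 6 in JA_JA against JA_W, 4 to 5 in JA_W against W_W, 4 in JA_JA against W_JA, 5 to 7 in JA_JA against W_W, 4 to 5 in W_JA against JA_W and 0 to 5 in the interaction. Of all 19333 to 19402 genes tested, these fits called 4204 to 5459, 4894 to 6421, 11599 to 12719, 5846 to 8050, 10317 to 11757, 10570 to 11691 and 2344 to 4407 in that order. For the interaction edgeR called 0 without W_W replicate 1, JA_W replicate 2 or JA_W replicate 4, 1 without W_JA replicate 3 or JA_JA replicate 1, and 2 without W_JA replicate 1 or JA_W replicate 3, with 5 of 7 at an unadjusted p below 0.05 each time; DESeq2, run with all libraries, called 5. Over all genes, the interaction calls in those edgeR fits ran from 2344 to 3170, against 3539 with all libraries. Of 1218 repeats of a single gene's change, 47 lost a call and 22 gained one, and the cause was not tested.

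Without TMM (library totals), the median of all genes shifted to -0.12 in W_JA against W_W, -0.10 in JA_JA against JA_W and -0.18 in JA_JA against W_W, and the share of calls that were higher was 30.9%, 32.1% and 31.1%, against 52.0%, 48.3% and 51.3%. In JA_JA against W_JA that share was 32.7% with library totals and 59.9% with upper-quartile scaling, against 47.1%. Upper-quartile scaling moved the median to 0.13 in JA_W against W_W. In the interaction the share of positive calls was 55.2% without JA_JA replicate 2, against 43.5%.

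The replicate numbers did not pair the libraries. Over 24 pairs with the same number in different groups, the correlation of deviations ran from -0.42 to 0.419, 5 exceeded 0.1, and 2 libraries correlated best with their own number. With the replicate number as a block, 3 of the 7 genes were called in W_JA against W_W, 6 in JA_JA against JA_W and in JA_JA against W_W, and 4 in each of the other comparisons and the interaction, the same numbers as without it. Of all 19224 genes the block fit called 4749 in W_JA against W_W, 5676 in JA_JA against JA_W and 11125 in JA_JA against W_W. It called 12208 in JA_W against W_W, 7168 in JA_JA against W_JA, 11230 in W_JA against JA_W and 3153 in the interaction. Each called log2 ratio difference keeps its value under the block (-1.09, -1.78 and -0.68 for CYP79B2/CYP79B3 in W_JA minus W_W, JA_W minus W_W and JA_JA minus W_JA, 0.40, 1.28 and 0.96 for GSTF9/GSTF10 in the same comparisons, and -1.49 and -1.80 for SOT16/SOT18 and -1.17 and -2.20 for CYP83B1/CYP83A1 in W_JA minus W_W and JA_W minus W_W). The exact sign-flip test over 4 pairs then gives p = 0.125, the smallest it can give, so all 10 calls are lost.

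Leaving out 1 library lost 38 of 80 repeats of the called ratios, in 10 of them through an exact p of 0.0571 and otherwise through the adjustment alone. For W_JA minus W_W the log2 differences ran from -1.23 to -0.87 (CYP79B2/CYP79B3), 0.33 to 0.45 (GSTF9/GSTF10), -1.67 to -1.22 (SOT16/SOT18) and -1.28 to -0.83 (CYP83B1/CYP83A1). For JA_W minus W_W they ran from -1.88 to -1.56 (CYP79B2/CYP79B3), 1.215 to 1.34 (GSTF9/GSTF10), -1.90 to -1.53 (SOT16/SOT18) and -2.32 to -1.865 (CYP83B1/CYP83A1). For JA_JA minus W_JA they ran from -0.81 to -0.54 for CYP79B2/CYP79B3 and from 0.82 to 1.12 for GSTF9/GSTF10. For JA_JA minus JA_W, SOT16/SOT18 ran from -0.40 to -0.24 and passed without JA_JA replicate 4, and CYP83B1/CYP83A1 ran from 0.30 to 0.59 and passed without JA_JA replicate 3. Without both W_W replicate 4 and JA_W replicate 1, the ratios in the order above were -1.13, 0.43, -1.58 and -1.28 in W_JA minus W_W (adjusted p = 0.0763) and -1.87, 1.37, -1.915 and -2.34 in JA_W minus W_W, where 3 against 3 libraries cannot give an exact p below 0.1 (adjusted p = 0.13).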
